A study of Mus musculus with 15 samples.

Results

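The core circadian clock genes Arntl (also called Bmal1), Clock, Npas2, Per1, Per2, Per3, Cry1, Cry2, Nr1d1 and Nr1d2 were followed in liver RNA of 15 mice, 1 Affymetrix array per mouse. They were chosen by symbol: all 10 were found, on 16 of the 22690 probe sets of the array, among 12393 genes tested. The mice were labelled as adult males aged 3 months, with 3 in each of 5 groups. Z4 mice carried the mutant Z form of human alpha1-antitrypsin, a protease inhibitor made by hepatocytes, and drank no doxycycline, so that the transgene was on. Z1 mice carried the same transgene and were given water with doxycycline (40 µg per mL) all their lives, starting at conception, which kept it off. M4 and M1 mice were the corresponding on and off groups with the wild type M form, and WT mice were littermates without the transgene and without doxycycline. Expression was hepatocyte-specific by design. The sources used here do not give the time of day at which the livers were taken, and every on-off comparison is also a comparison of mice without and with doxycycline, so that transgene and drug cannot be told apart.

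The circadian clock is a transcriptional feedback loop that runs in most cells. ARNTL pairs with CLOCK or NPAS2 and switches on genes whose promoters hold E-boxes, among them the Per, Cry and Nr1d genes. PER and CRY proteins build up with a delay and block that activity, while NR1D1 and NR1D2 (REV-ERB alpha and beta) repress Arntl, Npas2, Clock and Cry1 through ROR elements. In mouse liver the RNAs therefore peak in sequence. Arntl, Npas2 and Clock are highest around the end of the night, Nr1d1, Nr1d2, Per3, Per1, Per2 and Cry2 follow through the day into the early night, and Cry1 peaks late in the night.

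Promoter sequences show where the binding letters of these factors stand in the members. RefSeq windows of 300 bases (250 before the transcription start and 50 from it, build GRCm38.p6) were matched for 9 members in 13 windows, all but Per2. Both strands were searched for the E-box CACGTG, the related CACGTT, the D-box TTATGNAA bound by the DBP family, and the ROR elements TAGGTCA and TGGGTCA. Of 32851 such windows of all genes, 7.15% held CACGTG, 4.68% CACGTT, 3.38% TTATGNAA, 2.61% TAGGTCA and 3.98% TGGGTCA. Among the members, CACGTG was found for Per1 and Cry1, CACGTT for Cry1, Cry2 and Nr1d1, the D-box for Per1 and Per3, and TAGGTCA for Arntl. The 4 windows printed here were chosen because they hold the E-box, D-box or ROR letters, with every match in capitals (CACGTT included).
Per1, first of 2 starts, chr11:69098699-69098998, plus strand: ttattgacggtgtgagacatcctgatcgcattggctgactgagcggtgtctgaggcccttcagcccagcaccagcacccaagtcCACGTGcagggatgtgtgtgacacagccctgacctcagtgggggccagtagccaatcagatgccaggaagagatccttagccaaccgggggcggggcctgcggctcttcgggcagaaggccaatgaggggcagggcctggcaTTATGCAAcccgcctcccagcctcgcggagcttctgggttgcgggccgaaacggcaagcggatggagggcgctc
Per3, chr4:151044616-151044915, minus strand: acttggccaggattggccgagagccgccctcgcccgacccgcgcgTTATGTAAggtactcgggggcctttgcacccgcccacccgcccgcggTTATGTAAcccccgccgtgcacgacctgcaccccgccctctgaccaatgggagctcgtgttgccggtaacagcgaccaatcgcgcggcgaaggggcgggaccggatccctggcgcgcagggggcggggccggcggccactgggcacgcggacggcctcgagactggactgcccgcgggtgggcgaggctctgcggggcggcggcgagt
Cry1, chr10:85185005-85185304, minus strand: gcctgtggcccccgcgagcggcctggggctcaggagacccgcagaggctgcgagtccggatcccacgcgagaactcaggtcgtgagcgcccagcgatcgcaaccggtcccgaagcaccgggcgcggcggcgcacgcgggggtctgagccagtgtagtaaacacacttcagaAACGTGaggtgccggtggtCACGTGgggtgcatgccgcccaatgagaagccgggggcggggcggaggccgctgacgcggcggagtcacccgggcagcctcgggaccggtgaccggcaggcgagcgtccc
Arntl, second of 2 starts, chr7:113207261-113207560, plus strand: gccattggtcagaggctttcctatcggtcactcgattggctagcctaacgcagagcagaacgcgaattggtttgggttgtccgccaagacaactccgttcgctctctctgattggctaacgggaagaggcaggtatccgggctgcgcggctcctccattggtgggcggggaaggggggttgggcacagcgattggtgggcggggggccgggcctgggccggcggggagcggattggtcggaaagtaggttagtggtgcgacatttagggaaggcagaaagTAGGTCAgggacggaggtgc
Per1 thus carried an E-box at position -166 and a D-box at -24 from its start, and Per3 carried D-boxes at -205 and -158. Cry1 carried CACGTG at -60 and CACGTT at -79, and Arntl carried TAGGTCA at 30. These matches are letters in a window and not measured binding.

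Several facts of the arrays bear on every comparison. Poly-A spike controls, bacterial RNAs added before labelling, had median signals of 2 to 2.3 on Z4 and 3.7 to 5.2 on M4 arrays, against 45.9 to 48.3 on Z1, 42.6 to 57.9 on M1 and 33.8 to 37.6 on WT arrays, and 18S rRNA 5′ signals of 1879.9 to 2666 on Z4 and 1830 to 2680.7 on M4 arrays stood against 165.6 to 568.1 on Z1, 154.4 to 442 on M1 and 75 to 285.8 on WT arrays. Median hybridization control signals were 238.35 to 268.3 on Z4 and 250.55 to 287.75 on M4 arrays, against 452.1 to 684.85 on Z1, 511.1 to 603.45 on M1 and 487.8 to 522.8 on WT arrays. These technical signals moved with the on groups, and their part in the changes was not tested. The array median signal was 47.8 to 52.5 in Z4, 32 to 32.2 in Z1, 43.9 to 54.9 in M4, 30.4 to 31.3 in M1 and 42.3 to 44.9 in WT. With it the median over all genes of the log2 change was 0.25 in Z4 minus Z1, 0.29 in M4 minus M1, -0.19 in both Z1 and M1 minus WT, and 0.08 or less in size in the other simple comparisons. The array labelled M4 1 gave an Xist signal of 1149.2 and M4 2 one of 226, against at most 74.3 on the 12 arrays of the other groups, and Eif2s3y, a Y-linked gene, read 0.4 and 1.3 on them and 42.1 on M4 3, against at least 105.3 on those 12. The first 2 arrays go against the label of male mice, and M4 2 and 3 stood apart from M4 1 in several members. Some M4 results are therefore also given without 1 or 2 of these arrays. The 7 hepatocyte markers had summed signals of 37642.3 to 41426.8 in Z4, 43930.9 to 51674.8 in Z1, 37262.3 to 44752.3 in M4 and 42667.9 to 48560.9 in M1, all below the 61044.6 to 70508.3 in WT. Of these markers Alb, Ttr, Apoa1, Cps1 and Hnf4a averaged below WT in every other group, though Hnf4a was close to it in Z4 (2100 against 2120). Cyp3a11, however, averaged 8581 in Z1 against 7986 in WT. Tat averaged 3310 in Z1 against 3302 in WT. The 4 measured bile duct markers summed to 17.7 to 89.4 on all arrays. Kupffer cell markers (6 genes) summed to 1611.7 to 1879.9 in M4, against 864.9 to 949.6 in M1, 865.5 to 1092.4 in Z4, 687 to 1070.4 in Z1 and 902.8 to 1560 in WT. Stellate cell markers (5 genes) summed to 1186.6 to 1258 in Z4, against 650.7 to 873.1 in Z1, and to 787 to 1317.7 in M4, against 976 to 1094.5 in M1, with 699.3 to 835 in WT. Summed markers of sinusoidal endothelium (5 genes) and of lymphocytes (4 genes) were also higher without overlap in Z4 than in Z1 and in M4 than in M1. Single markers went the other way. The lymphocyte marker Ptprc averaged 45.1 in Z4 and 40.2 in M4, against 61.0 in Z1 and 60.9 in M1. The endothelial marker Lyve1 averaged 22.6 in Z4 and 22.3 in M4, against 34.5 in Z1 and 38.4 in M1. Of the stellate cell markers, Col3a1 averaged 172.8 in Z4 and 187 in M4, against 207.4 in Z1 and 288.1 in M1. Lrat averaged 11.4 in Z4 and 14.3 in M4, against 12.3 in Z1 and 17.5 in M1. The endothelial sums were 783.8 to 867.1 in Z4, against 539 to 709.3 in Z1, and 847.9 to 1284.9 in M4, against 602 to 692 in M1. The part of cell makeup in the results was not tested, and in bulk tissue fewer cells of a type and less RNA per cell cannot be told apart.

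**Figure D1:**
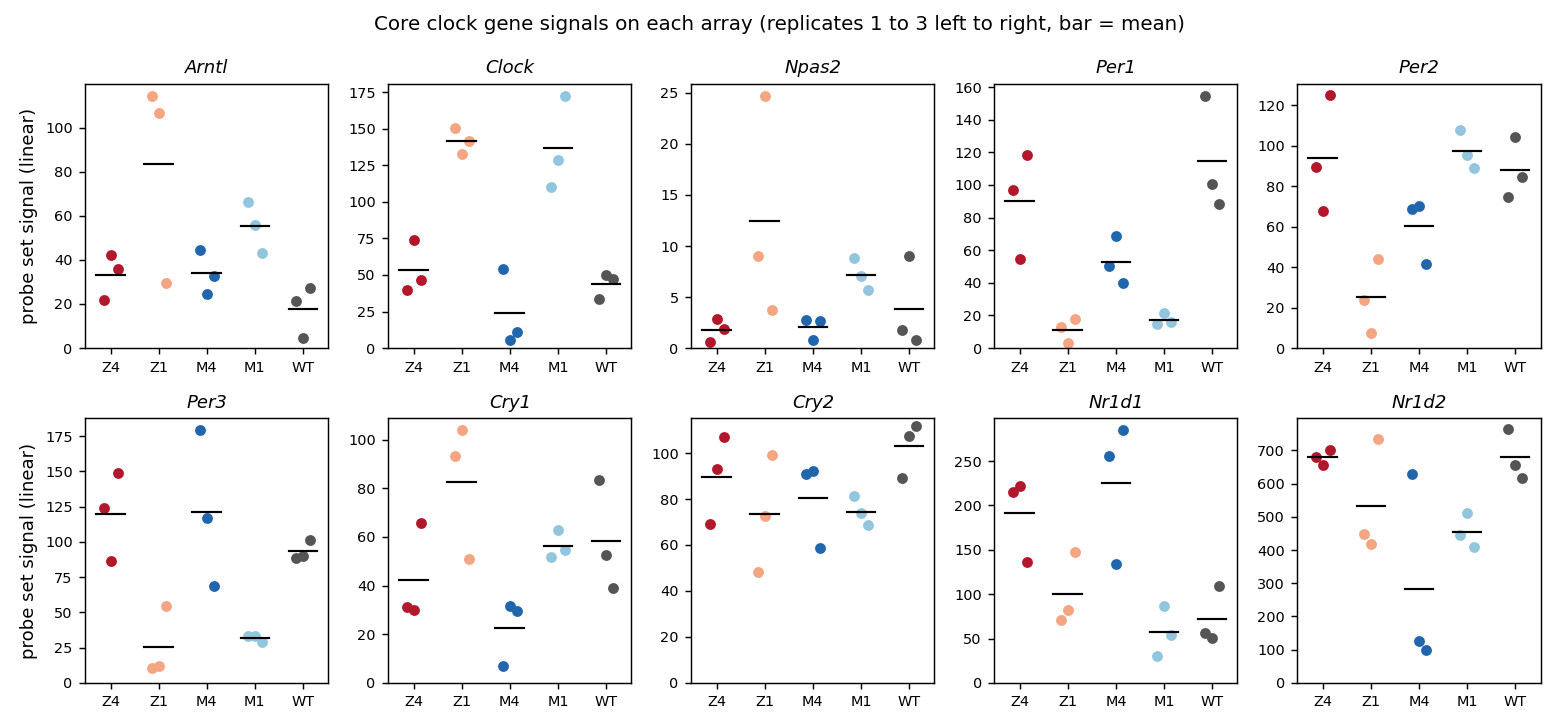
Linear probe set signal of each of the 10 clock genes on every array, by group (replicates 1 to 3 from left to right, bars are group means of 3). Per1 and Per3 sit high in Z4, M4 and WT and low in Z1 and M1, Clock is high in Z1 and M1, and Nr1d2 is split within M4.

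Turning the Z transgene on was accompanied by higher signals of all 3 Per genes and lower signals of the activators Clock and Npas2 in Z4 than in Z1. In this comparison 3 of the 10 members rose, against 31.8% of all 12393 genes, and 2 fell, against 7.56%. The rises are therefore a share like that of all genes. The members' median log2 change was 0.33, close to the 0.25 of all genes.

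The Per genes encode the PERIOD repressors. Per1 read 96.7, 54.4 and 118.6 in Z4, against 12.9, 3.2 and 17.7 in Z1, with no overlap between the groups. Its log2 change was 1.95 (SE 0.27, adjusted p = 1.17e-04), or 1.70 relative to the median of all genes. Per3 read 124.2, 86.7 and 148.8 in Z4, against 10.4, 11.7 and 54.2 in Z1. Array Z1 3 lay far above the other Z1 arrays but still below all Z4 arrays (log2 change 1.84, SE 0.34, adjusted p = 9.27e-04, or 1.59 relative to all genes). Per2 read 89.3, 67.6 and 124.9 in Z4, against 23.7, 7.7 and 44 in Z1, again without overlap (log2 change 1.49, SE 0.29, adjusted p = 0.00118, or 1.24 relative to all genes). All 3 Per calls held in each of the 25 alternative settings tried. A second Per2 probe set and another of Per3 gave the same direction, at 0.87 and 1.28 (adjusted p = 0.00648 and 4.72e-04 over all probe sets), and the third of Per3, at signals of 4.8 to 19.1 in Z4, gave 0.26 (adjusted p = 0.310). Sizes depend on the constant of 16 added before the logarithm, since Z1 signals lay near it: Per1 changed by 3.07 with 1 and by 1.01 with 64.

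Of the activators, Clock read 39.9, 73.7 and 46.6 in Z4, against 150.6, 132.4 and 141.4 in Z1. The Z1 arrays were close together and all above Z4 (log2 change -1.21, SE 0.34, adjusted p = 0.0113, or -1.46 relative to all genes), and the call ended with a constant of 1 (adjusted p = 0.0659). The second Clock probe set read 44.7, 91 and 72.9 in Z4, against 70.1, 88.4 and 46.7 in Z1, and gave a log2 change of 0.01, so the fall rests on 1 of 2 probe sets. Arntl, the partner of both other activators, read 21.9, 42.3 and 35.8 in Z4, against 114.4, 106.8 and 29.6 in Z1. Array Z1 3 lay among the Z4 arrays, and the log2 change of -0.89 did not pass (SE 0.36, adjusted p = 0.0666). It passed without Z1 3 (-1.38, adjusted p = 0.00330), without WT 2 (-0.89, adjusted p = 0.0488) and after quantile normalization (-1.33, adjusted p = 0.00793). Npas2 read 0.6, 2.9 and 1.9 in Z4, against 9, 24.7 and 3.7 in Z1. These are the dimmest signals of the 10 members, nearly all below the constant of 16, and the called log2 change of -0.61 (adjusted p = 0.0396) is tied to it: it was -2.02 with 1 and -0.21 with 64. That call ended without any 1 of the 3 Z4 arrays (-0.56 to -0.66), of Z1 1 (-0.67) and Z1 2 (-0.32), or of M1 2 (-0.61), and the other Npas2 probe set gave 0.16 (adjusted p = 0.525).

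Among the cryptochromes, the partners of PER in repression, Cry1 read 31, 29.8 and 65.8 in Z4, against 93.2, 103.9 and 50.9 in Z1, with Z4 3 and Z1 3 crossing (log2 change -0.77, SE 0.32, adjusted p = 0.0706). It passed without Z1 3 (-1.03), Z4 3 (-1.04) or M4 1 (-0.77) and after quantile normalization (-1.16, adjusted p = 0.0168). Cry2 overlapped between the groups, at 69.2 to 107 in Z4 and 48.1 to 99.2 in Z1 (log2 change 0.27, 95% interval -0.19 to 0.72, adjusted p = 0.340). The REV-ERB gene Nr1d1 read 215.3, 222.1 and 136.1 in Z4, against 70.8, 82.6 and 147.2 in Z1, where again Z1 3 lay within the Z4 range (log2 change 0.86, SE 0.35, adjusted p = 0.0686, and 1.13 without Z1 3, adjusted p = 0.0338). Nr1d2 was the brightest member, at 680.4, 657.4 and 702.3 in Z4 and 447.7, 416.9 and 733.6 in Z1 (log2 change 0.39, adjusted p = 0.534). Its dimmer probe set gave 1.05 (adjusted p = 0.0396).

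**Figure D2:**
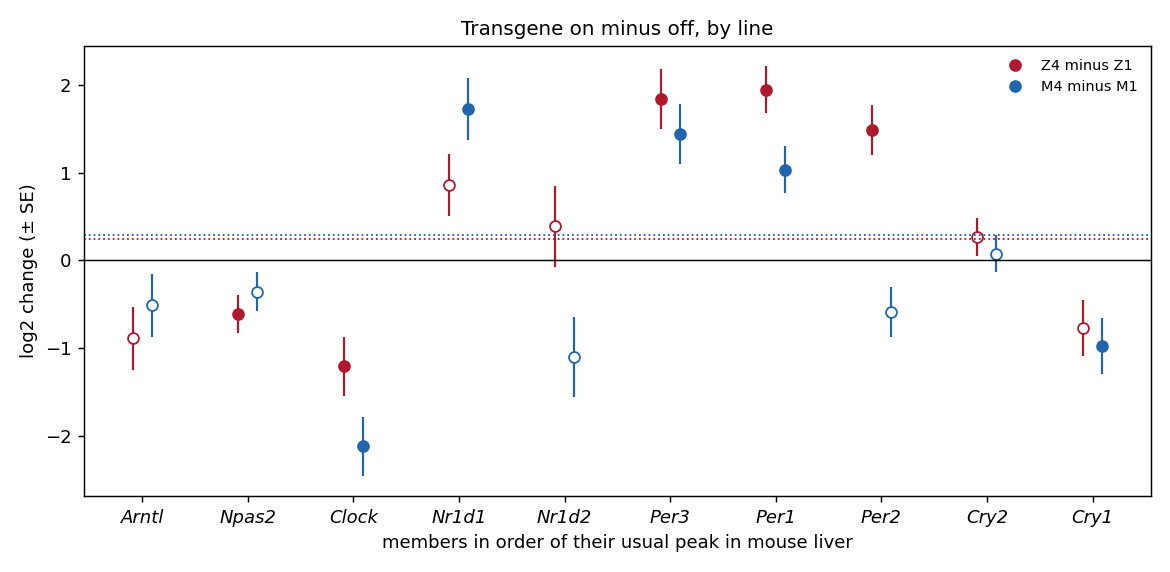
Log2 change (± SE) of each member in Z4 minus Z1 (red) and M4 minus M1 (blue), in order of the usual peak in mouse liver; filled points passed at adjusted p under 0.05 and dotted lines are the median of all genes. In Z4 minus Z1 the first 3 genes and Cry1 lie below 0 and the 6 others above it, whereas Per2 and Nr1d2 lie below 0 in M4 minus M1.

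Turning the M transgene on was accompanied by higher Nr1d1, Per3 and Per1 and by lower Clock and Cry1. Here 3 members rose, against 38.1% of all genes, and 2 fell, against 12.5%. Nr1d1 read 255.6, 133.9 and 285.4 in M4, against 30.8, 86.3 and 54 in M1, with no overlap (log2 change 1.73, SE 0.35, adjusted p = 0.00120, or 1.44 relative to all genes). Per3 read 179.1, 116.8 and 68.6 in M4, against 33.2, 33.5 and 28.9 in M1 (log2 change 1.44, SE 0.34, adjusted p = 0.00325, or 1.15 relative to all genes). The M1 arrays were nearly equal and all below M4, and both of the other Per3 probe sets rose too, by 1.15 and 0.69. Per1 read 50.1, 68.4 and 40.2 in M4, against 14.5, 21.5 and 15.9 in M1 (log2 change 1.03, SE 0.27, adjusted p = 0.00564). The Per1 groups did not overlap, but relative to all genes the change was 0.74, and after quantile normalization it was 0.38 (adjusted p = 0.357).

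Clock had the largest fall of the members in M4 minus M1. It read 54.1, 5.7 and 11.2 in M4, against 109.9, 128.6 and 172.4 in M1 (log2 change -2.12, SE 0.34, adjusted p = 1.72e-04, or -2.42 relative to all genes). Arrays M4 2 and 3 had very low signals, whereas M4 1 lay just above all WT arrays. Without M4 2 and 3 the fall was -1.11 and still called (adjusted p = 0.00978). The second probe set, at 78, 23 and 4.3 in M4 and 50.7, 49.2 and 62 in M1, gave -0.73 (adjusted p = 0.151). Cry1 read 6.9, 31.7 and 29.4 in M4, against 51.9, 63 and 54.5 in M1 (log2 change -0.98, adjusted p = 0.0208). The lowest value was that of M4 1, without which the change was -0.64 (adjusted p = 0.0992), and the call also ended without M1 2 (-0.91, adjusted p = 0.0622). Nr1d2 read 628.4, 126 and 97.6 in M4, against 446.3, 510.4 and 407.8 in M1: M4 1 lay above every M1 array and M4 2 and 3 below all of them. Its change of -1.10 did not pass (adjusted p = 0.0584) but did without M4 1 (-1.88, adjusted p = 1.80e-05), and the other Nr1d2 probe set gave 0.67 (adjusted p = 0.155). Without M4 1 and 2, the arrays with female-type signals, Per1, Per3 and Cry1 changed by 0.76, 0.82 and -0.67 and did not pass (adjusted p = 0.137, 0.158 and 0.207), which leaves a single M4 array assumed to vary like the other groups. Without M4 2 and 3, Per1 changed by 0.99 (adjusted p = 0.0600).

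Per2 was the member whose on-off change differed between the lines. It rose in the Z line, as given above, but read 69, 70.2 and 41.7 in M4, against 107.7, 95.4 and 89 in M1, with all M4 arrays below all M1 arrays (log2 change -0.59, SE 0.29, adjusted p = 0.0994). After quantile normalization the M-line change was -0.93 and passed (adjusted p = 0.0209), as it did without Z1 2 (-0.59, adjusted p = 0.0443). The on-off change of Z minus that of M was 2.08 (SE 0.40, adjusted p = 0.0427), the single call among 10 members, against 0.613% of all genes. It was close to the threshold and ended in 17 of 25 settings (adjusted p from 0.00712 to 0.155), among them the omission of any 1 of the Z4 or M1 arrays or of Z1 1, Z1 2, M4 2, M4 3, WT 2 or WT 3, with differences of 1.73 to 2.26. Without M4 1 Clock and Nr1d2 also differed between the lines (1.42 and 2.27, adjusted p = 0.00865 and 2.25e-04), against 0.91 and 1.49 with all arrays (adjusted p = 0.388 and 0.300). These 2 calls rest on M4 2 and 3, at 5.7 and 11.2 for Clock and 126 and 97.6 for Nr1d2. On M4 1 Clock read 54.1, and Nr1d2 read 628.4, above the 407.8 to 510.4 of M1. The second Per2 probe set, at 19.4, 30.1 and 25.5 in M4 and 21, 24.1 and 22.5 in M1, gave a difference of 0.79 (adjusted p = 0.261) and no opposite change in the M line (0.08).

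With both transgenes on, Z4 and M4 livers differed in no member past the threshold by limma, against 5.16% of all genes, and 3 members had an unadjusted p under 0.05. Nr1d2 came nearest, with all Z4 arrays above all M4 arrays (log2 change 1.67, SE 0.46, adjusted p = 0.0505). It passed after quantile normalization (1.73, adjusted p = 0.0462) and without M4 1 (2.45, adjusted p = 4.09e-06), as did Clock without M4 1 (1.48, adjusted p = 4.28e-04), against 0.97 with all arrays (adjusted p = 0.112). Both differences rest on M4 2 and 3, at 126 and 97.6 for Nr1d2 and 5.7 and 11.2 for Clock. On M4 1 Nr1d2 read 628.4, near the 657.4 to 702.3 of Z4. Clock read 54.1 on it, within the 39.9 to 73.7 of Z4. For the 2 Clock probe sets the Z4 minus M4 values were alike, at 0.97 and 0.99, whereas the second Nr1d2 probe set gave 0.34 (adjusted p = 0.710). The change of Per3 was 0.04, with a 95% interval of -0.70 to 0.77, and that of Arntl was -0.02, with an interval of -0.80 to 0.76. These intervals are not adjusted for the number of genes, and differences within them are not excluded.

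With both transgenes off, Z1 and M1 livers also differed in no member by limma, against 0.129% of all genes, with 1 at an unadjusted p under 0.05. That member was Per2, at 23.7, 7.7 and 44 in Z1 against 107.7, 95.4 and 89 in M1. All Z1 arrays lay below all M1 arrays (log2 change -1.56, SE 0.29, adjusted p = 0.0535). The call was reached without Z1 3 (-1.88, adjusted p = 0.00964) and without Z4 3, M4 3 or WT 1 (-1.56, adjusted p = 0.0465 to 0.0482). The second Per2 probe set gave -0.54 (adjusted p = 0.474).

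**Figure D3:**
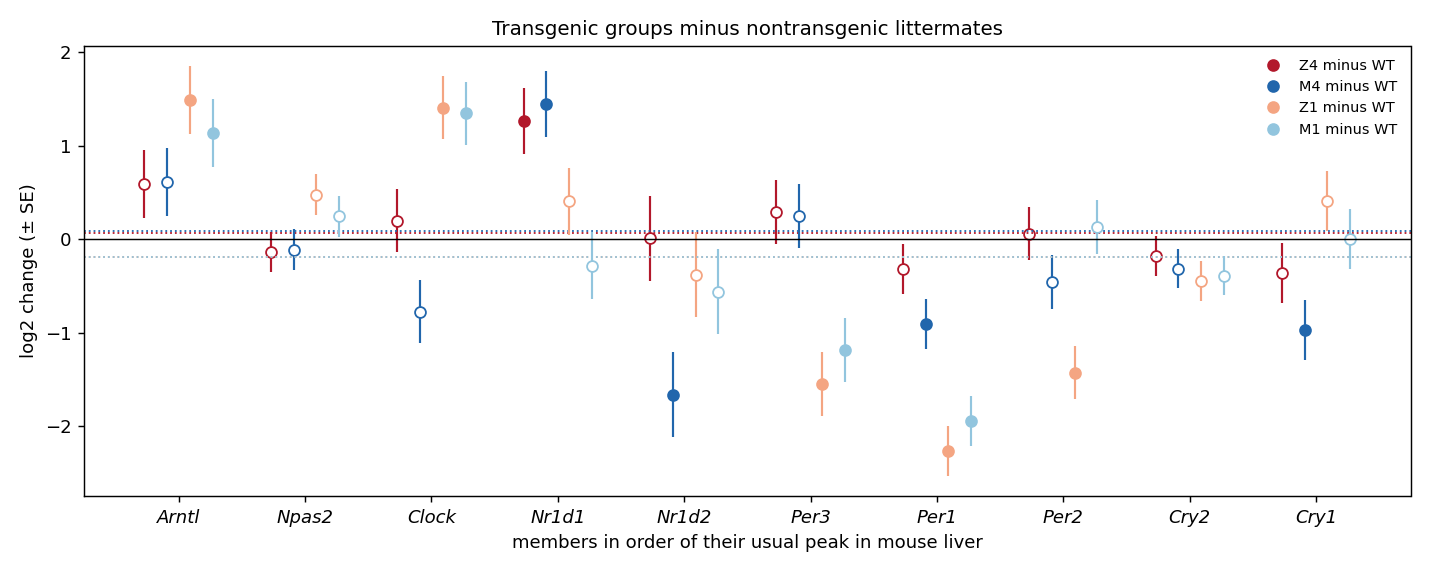
Log2 change (± SE) of each member in Z4, M4, Z1 and M1 minus WT, drawn as in the plot of on-off changes. Nr1d1 is called higher in Z4 and M4, and Arntl and Clock are called higher and Per1 and Per3 lower in Z1 and M1.

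Against littermates, the 2 groups with the transgene on had Nr1d1 above WT, and the 2 doxycycline groups had Arntl and Clock above and Per1 and Per3 below WT. These comparisons share the same 3 WT arrays. In Z4 minus WT, 1 member rose, against 7.55% of all genes, and none of the 10 fell. That was Nr1d1, at 215.3, 222.1 and 136.1 in Z4, against 56.2, 50.9 and 108.8 in WT. The groups did not overlap (log2 change 1.27, SE 0.35, adjusted p = 0.0320), but the call ended with a constant of 1 and without Z4 1, Z4 2, WT 1 or WT 2 (1.10 to 1.17, adjusted p = 0.0956 to 0.110). On the tested probe sets the 9 others had log2 changes of -0.37 to 0.59, and their arrays overlapped with WT in every case. A dim second Per3 probe set read 4.8, 11.7 and 19.1 in Z4, against 28.1, 27.1 and 26.5 in WT, without overlap. It gave -0.67 (adjusted p = 0.0366 over all probe sets), opposite in sign to the 0.29 of the tested one.

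In M4 minus WT, 1 member rose, against 14.6% of all genes, and 3 fell, against 9.48%. Nr1d1 read 255.6, 133.9 and 285.4 in M4 and was called higher in all 25 settings (log2 change 1.45, SE 0.35, adjusted p = 0.0104). Per1, at 50.1, 68.4 and 40.2 in M4 and 154.5, 100.5 and 88.5 in WT, fell by 0.91 on the log2 scale (SE 0.27, adjusted p = 0.0256), with no overlap. The fall of Per1 was not called without M4 1, M4 3 or WT 1 (-0.89, -0.77 and -0.70). It was lost in 7 of 25 settings, among them a constant of 1 and the fit of M4 and WT alone. Cry1 fell by 0.97 (adjusted p = 0.0402), with M4 at 6.9 to 31.7 below WT at 39.1 to 83.4, and was not called without M4 1, WT 1 or WT 2 (-0.63, -0.74 and -1.01) or without any 1 of the M1 arrays (-0.97). In all the Cry1 call ended in 11 of 25 settings, among them constants of 1 and 64 and the fit of M4 and WT alone (adjusted p = 0.0650, 0.0572 and 0.114). Nr1d2 fell by 1.67 (adjusted p = 0.0183), although M4 1 at 628.4 lay within the WT range of 617.8 to 763.1. This value came from M4 2 and 3: the change was -0.10 without both (adjusted p = 0.841), -1.36 without M4 2, -1.19 without M4 3 and -1.58 without WT 1, none of them called, and 0.19 on the other probe set. Clock fell without M4 1 (-1.29, adjusted p = 9.90e-04), against -0.78 with all arrays (adjusted p = 0.107). Its direction depended on the arrays kept: M4 2 and 3 read 5.7 and 11.2, but M4 1 read 54.1, above the 33.8 to 50.1 of WT.

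In Z1 minus WT, 2 members rose, against 4.09% of all genes, and 3 fell, against 20.3%. Per1 read 12.9, 3.2 and 17.7 in Z1, against 154.5, 100.5 and 88.5 in WT (log2 change -2.26, SE 0.27, adjusted p = 2.20e-04, or -2.08 relative to all genes). Per3, at 10.4 to 54.2 in Z1 and 88.5 to 101.5 in WT, fell by 1.55 (adjusted p = 0.00582), and Per2, at 7.7 to 44 in Z1 and 74.6 to 104.4 in WT, fell by 1.43 (adjusted p = 0.00352). None of the 3 Per genes overlapped with WT. Clock read 132.4 to 150.6 in Z1, against 33.8 to 50.1 in WT (log2 change 1.41, SE 0.34, adjusted p = 0.00863), while its second probe set gave 0.16. Arntl read 114.4, 106.8 and 29.6 in Z1, against 21.2, 4.6 and 27.4 in WT (log2 change 1.49, SE 0.36, adjusted p = 0.0102). Z1 3 lay only just above the highest WT array, and without it the change was 1.98 (adjusted p = 0.00128). With the other groups left out of the fit the Arntl call ended (adjusted p = 0.0570).

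In M1 minus WT, 2 members rose, against 3.99% of all genes, and 2 fell, against 22.4%. Per1 read 14.5, 21.5 and 15.9 in M1 (log2 change -1.94, SE 0.27, adjusted p = 3.41e-04), and Per3 read 33.2, 33.5 and 28.9 (-1.19, SE 0.34, adjusted p = 0.0210), all below WT. The Per3 call ended when arrays were quantile normalized (-0.86, adjusted p = 0.0983) and without any 1 of the M1 arrays (-1.14 to -1.21) or WT 3 (-1.14), although both other Per3 probe sets fell as well (-0.96 and -0.95). Clock, at 109.9, 128.6 and 172.4 in M1, was higher by 1.35 (SE 0.34, adjusted p = 0.00994), but its second probe set gave -0.08 (adjusted p = 0.906). The Clock calls in Z1 and M1 minus WT both ended with a constant of 1 (adjusted p = 0.0506 and 0.0552). Arntl, at 66.2, 55.9 and 43.3 in M1, was higher by 1.13 (adjusted p = 0.0345), but not past the threshold without any 1 of the M1 arrays (1.02 to 1.26) or WT 2 (0.81). Per2 in M1 overlapped with WT, at 89 to 107.7 and 74.6 to 104.4 (log2 change 0.13, 95% interval -0.48 to 0.75).

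Set in the usual order of peak times, the signs of Z4 minus Z1 can be read for the tested probe sets, although 5 of the 10 members did not pass. Arntl, Npas2 and Clock and the late-night gene Cry1 all had negative changes, and all 6 genes that peak from day to early night had positive ones, also relative to the median of all genes, although Cry2 was then at 0.02. The second probe sets of Clock and Npas2 did not have the negative sign (0.01 and 0.16). In M4 minus M1 the same 4 genes were negative, but of the 6 others Per2 and Nr1d2 were negative, and Cry2 too relative to the median. There the second probe sets of Per2 and Nr1d2 did not have the negative sign (0.08 and 0.67), whereas those of Clock and Npas2 did (-0.73 and -0.01). Nr1d2 on M4 1 lay above every M1 array. Z1 minus WT and M1 minus WT, which share the Z1 and M1 arrays with the on-off comparisons and so lean to the opposite sign, had 3 of 3 positive changes among the first 3 genes and 5 of 6 negative ones among the day and early-night genes. Nr1d1 was the exception in Z1 (0.40) and Per2 in M1 (0.13). WT livers had the lowest mean Arntl and the highest mean Per1, but, as given above, less Nr1d1 than Z4 and M4 livers.

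As a description, the members were also condensed on each array into the mean centred log2 signal of Arntl, Clock and Npas2 minus that of Per1, Per2, Per3, Nr1d1 and Nr1d2, a difference in which a shift common to all members on the log2 scale cancels. Cry1 and Cry2 are not part of it, and Cry1, though a repressor, had negative changes like the activators. The zero point is set by centring each gene over the 15 arrays, and the genes were already known to be split this way, so the values carry no test. It was -1.16, -0.37 and -0.99 on Z4 arrays, against 1.71, 2.10 and 0.30 on Z1 arrays. It was -0.67, -0.83 and -0.36 on M4 arrays, against 1.01, 0.68 and 0.95 on M1 arrays. WT arrays lay at -0.88, -0.77 and -0.74. The on and WT arrays did not overlap with the off arrays, and Z1 3 was the nearest of the off arrays to them.

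**Figure D4:**
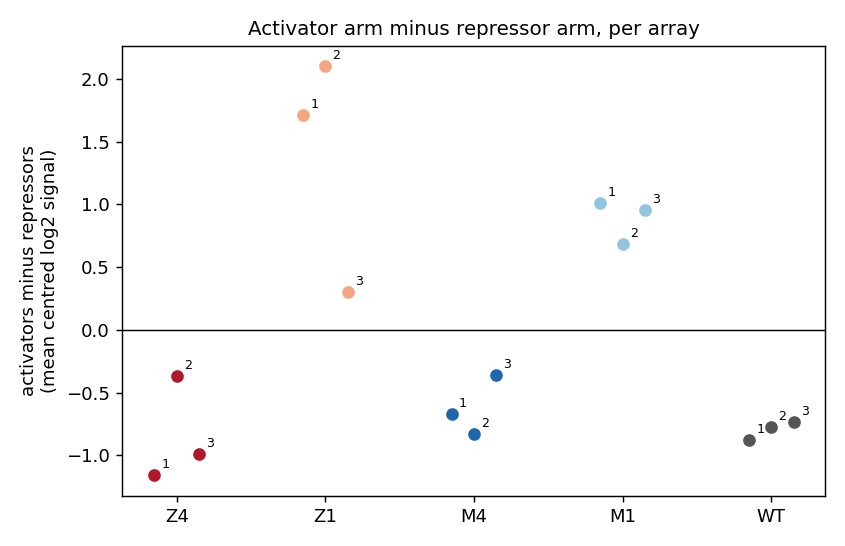
Mean centred log2 signal of the 3 activators minus that of 5 repressors on each array, labelled with its replicate number. Z4, M4 and WT arrays lie below Z1 and M1 arrays, with Z1 3 at 0.30 the lowest of these; the zero is set by the centring.

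Array Z1 3 departed from Z1 1 and Z1 2 in most members. In 9 of the 10 it lay outside the other 2 Z1 arrays on the side of the Z4 mean, as it did in 35.9% of all genes: lower for Arntl, Npas2 and Cry1 and higher for Per1, Per2, Per3, Cry2, Nr1d1 and Nr1d2. Clock was the exception, at 141.4 between 132.4 and 150.6. The output factor Dbp was split in the same way, with 814.8 on Z1 3 and 81.6 and 65 on the others. The array also stood apart in its hybridization controls, at a median of 684.85 against 452.1 and 466.75, and in the 18S 5′ signal, at 165.6 against 568.1 and 373.4, whose part in this was not tested. Whether a difference in clock phase or in time of collection between mice accounts for the on-off pattern was not tested, since no sample has a time of day.

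With the 5 groups ordered by mean signal within each member, 36 of 40 neighbouring pairs overlapped, against 82.5% of such pairs over all genes. The 4 pairs apart were M1 over Z4 for Clock, M4 over M1 for Per1, WT over M4 for Per2 and WT over M1 for Per3. Z1 had the highest mean of Arntl, Clock, Npas2 and Cry1 and the lowest of Per1, Per2, Per3 and Cry2. Per1 averaged 11.3 ± 7.39 in Z1, its lowest group, against 114.5 ± 35.2 in WT, its highest (SD, n = 3), and no ratio is given since the Z1 signals lie below or near the constant of 16. The means of Cry2 lay closest together, with a ratio of 1.40 between the highest and the lowest.

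Other clock factors were read from lists, beside which stand the 31.8% of all genes that rose and 7.56% that fell in Z4 minus Z1, and the 38.1% and 12.5% in M4 minus M1. Of 5 measured ROR activators and feedback factors, 2 rose and 1 fell in Z4 minus Z1, and 2 rose and 2 fell in M4 minus M1. Rorb, a dim member of the ROR family, rose in both by 1.32 and 1.33 (adjusted p = 1.81e-04 and 9.42e-05), at 30.3 to 39 in Z4 and 32 to 41.6 in M4, against 0.7 to 9.8 in Z1 and 1 to 10.7 in M1. Nfil3, the repressor that competes with DBP for D-boxes, read 57.3, 42.7 and 117.4 in Z4, against 336.8, 403 and 103.7 in Z1 (log2 change -1.65, adjusted p = 0.0230). It fell by 1.72 in M4 minus M1 (adjusted p = 0.0140). Bhlhe40, a repressor of E-box genes, rose in Z4 minus Z1 (1.36, adjusted p = 0.0157), with Z1 3 at 389.9 near the Z4 arrays and Z1 1 and Z1 2 at 112.9 and 81.6. Rora, an activator at ROR elements, fell in M4 minus M1 (-1.10, adjusted p = 0.00844), and its low values were those of M4 2 and 3, at 49.7 and 71, against 197.9 on M4 1.

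Of the 12 measured PAR bZIP and direct output genes, 8 rose and none fell in Z4 minus Z1, with a median log2 change of 1.73 against 0.25 for all genes, and 4 rose and none fell in M4 minus M1, with a median of 0.43 against 0.29. Lpin1, a phosphatidate phosphatase, read 409.8 to 1221 in Z4, against 76 to 112.8 in Z1 (log2 change 2.91, adjusted p = 9.72e-05). Usp2, a deubiquitinase, read 226.9 to 519.7 in Z4, against 4.7 to 72.3 in Z1 (log2 change 3.11, adjusted p = 1.11e-04). Both rose without overlap between the groups. Dbp, the D-box activator, read 1078.4, 634.6 and 768.8 in Z4, against 81.6, 65 and 814.8 in Z1 (log2 change 2.14, adjusted p = 0.0125), and Tef of the same family was higher by 1.71 (adjusted p = 2.70e-04). In M4 minus M1 Usp2 rose by 1.95 (adjusted p = 0.00187), Wee1, a cell cycle kinase, by 1.77 (adjusted p = 1.57e-04) and Tef by 1.37 (adjusted p = 8.38e-04), while Dbp changed by 1.13 (adjusted p = 0.134). Dbp was also lower with doxycycline than in WT, by log2 changes of -3.02 in Z1 and -1.78 in M1 (adjusted p = 0.00347 and 0.0426). Hlf, the third of these factors, rose in Z4 over Z1, M4 and WT alike, by 1.06, 0.83 and 0.95 (adjusted p = 1.01e-04, 0.0108 and 0.00125).

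Genes for proteins that modify or assist the clock moved without a common direction. Of 16 measured clock protein modifiers, 6 rose, a share near that of all genes, and 3 fell in Z4 minus Z1, among them Gsk3a (1.13) and Csnk2a1 (0.88), kinases, as rises and Skp1 (-1.14), a ubiquitin ligase subunit, as a fall. In M4 minus M1, 5 rose and 4 fell. Of 17 cofactors, 4 rose and 1 fell in Z4 minus Z1, and 7 rose and 4 fell in M4 minus M1, with Wdr5, a methyltransferase subunit, higher by 1.15 and 1.16. Neither list had a median above that of all genes in these comparisons.

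Genes that answer time cues other than the clock itself were set beside it. Of 11 glucocorticoid-induced genes, 4 rose and 1 fell in Z4 minus Z1, and 4 rose and 2 fell in M4 minus M1. The rises were near the share of all genes in both. Fkbp5 rose in both, by 1.23 and 1.34 (adjusted p = 0.00182 and 6.70e-04), whereas Tsc22d3 rose in the first by 1.00 and fell in the second by 0.68 (adjusted p = 0.00390 and 0.0242). Of 10 fasting and feeding genes, 4 rose and 1 fell in the first and 3 rose and none fell in the second. Cpt1a, of mitochondrial fatty acid uptake, was higher by 0.81 and 1.14. In the first, Srebf1 (0.87, adjusted p = 0.00703) and Pnpla3 (0.81, adjusted p = 0.0216) also rose, and Pdk4 fell (-1.45, adjusted p = 0.0113). In the second, Srebf1, Pnpla3 and Pdk4 did not pass (-0.03, 0.48 and -0.12), while Irs2 rose. Angptl4 rose in both, by 0.98 and 1.22 (adjusted p = 0.0267 and 0.00606). The list joins fasting and feeding genes, so its counts give no direction for that cue. Body temperature genes (7 measured) join the cold-induced Cirbp with heat shock genes. They gave 1 rise (Hspa1a, 1.66) and 1 fall (Cirbp, -0.57) in Z4 minus Z1. In M4 minus M1 they gave 1 rise (Cirbp, 0.69) and 6 falls, among them Hspa1b (-2.66) and Hsp90aa1 (-1.75). Their part in the clock gene changes was not tested.

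The genes whose profiles over the 15 arrays lay nearest to those of Arntl and Nr1d1 were found by the root-mean-square difference between centred log2 profiles. For Arntl these were Htra1 (0.33), Chka (0.34), Ubxn1 (0.41), Pkp2 (0.42), Msantd2 (0.42) and Spsb4 (0.43), all in log2 units. Chka averaged 74.3 in Z4, 209 in Z1, 64.3 in M4, 148 in M1 and 47.0 in WT. For Nr1d1 they were Helz (0.34), Pla2g2e (0.34), Prss39 (0.37), Tcl1b3 (0.40), Sema6c (0.40) and Galnt2 (0.42). Helz averaged 277 in Z4, 122 in Z1, 279 in M4, 68.7 in M1 and 113 in WT.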

How the data were processed

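Total liver RNA of 15 mice was hybridised to 1-colour Affymetrix mouse arrays, 1 per mouse and 3 per group. The authors deposited 1 table of probe set linear signal intensity values between 0 and 22995.4. The submitters' processing notes name RMA, with no version, but the deposited intensity values include 0 and have a 2% trimmed mean of 150.063 to 150.08 on every array, so the steps actually behind them are not given in the sources used here. The values were kept as deposited, and 16 was added before taking log2, so fold changes of dim probe sets are understated. Of 22690 probe sets, 64 were controls, 20380 were annotated to 1 gene, 691 to several and 1555 to none. For each of 12393 genes the probe set with the highest mean signal was tested, and the gene's other probe sets are reported beside it for the members.

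All 5 groups were fitted together with limma 3.58.1 in R 4.3.3 (lmFit and eBayes, 10 residual and 3.88 prior degrees of freedom), with 9 contrasts and Benjamini-Hochberg adjustment over all genes in each. The threshold was an adjusted p of 0.05, all tests are two-sided, and the number of arrays limits the precision. The labels say that the 3 samples of a group are biological replicates. Their numbers did not pair them: 30 correlations of deviations between same-numbered samples ran from -0.17 to 0.07. The members and gene lists were chosen with earlier results of these data known. All members were named, from each other list up to 3 called genes per direction with the smallest adjusted p (Dbp, Tef and Hlf always), and 6 genes nearest in profile to Arntl and to Nr1d1. Alternatives were another constant, filter, normalization, probe set rule, spread model, replicate block and omitted arrays. Figures were drawn with matplotlib 3.10.9.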

Additional observations from a re-analysis of the deposited data

Results flagged for a closer look

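The on-off change differed between the Z and M lines, by the interaction term of the limma fit adjusted over all genes, for 4 of the 88 genes of the members and lists, against 0.613% of all genes. For Per2 the change of Z4 minus Z1 exceeded that of M4 minus M1 by 2.08 on the log2 scale (SE 0.40, adjusted p = 0.0427), with all Z4 arrays above all Z1 arrays and all M4 arrays below all M1 arrays. Its second probe set gave 0.79 (adjusted p = 0.261), and the call ended in 17 of 25 settings.

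The glucocorticoid-induced gene Tsc22d3 gave a difference of 1.68 (adjusted p = 0.0427) and the heat shock gene Hspa1b one of 3.66 (adjusted p = 0.0457). For each, all Z4 arrays lay above all Z1 arrays and all M4 arrays below all M1 arrays. Hspa1b changed by 1.00 in Z4 minus Z1, which did not pass (adjusted p = 0.154), and by -2.66 in M4 minus M1 (adjusted p = 0.00104). The cold-induced RNA-binding protein gene Cirbp gave -1.25 (adjusted p = 0.0461), with changes of -0.57 in Z4 minus Z1 and 0.69 in M4 minus M1. Whether these genes and Per2 share a cause was not tested.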

How the results depend on the processing

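Of the 90 log2 changes of members, recomputed 2241 times over 25 settings, none changed sign where either value was called, 76 values lost and 43 gained the threshold, and 50 uncalled values changed sign. Counts of members called moved as follows. With only the groups compared in the fit, M4 minus WT had 1 (4 in the fit of all groups) and the difference between the lines 0 (against 1). Among the 7435 genes above the 40th percentile, which drop Npas2, Z4 minus M4 and Z1 minus M1 had 1 each, against 0. With the test run over all probe sets, and a member counted if any of its probe sets was called, Z4 minus WT had 2. The added member was Per3, through its dim probe set (-0.67, against 0.29 on the tested one). After quantile normalization Z4 minus M4 had 1 and the difference between the lines 0, and with an intensity trend and robust spread Z1 minus M1 had 1. With the replicate block the difference between the lines had 0, Cry1 in M4 minus WT was not called (-0.97, adjusted p = 0.0591), and no other count moved by over 1.5 times. With a constant of 1, Z4 minus WT had 0, M4 minus WT 2 and the difference between the lines 0. Without M4 1 and 2, M4 minus M1 had 3, Z4 minus M4 2 and the difference between the lines 2. Without M4 2 and 3, M4 minus WT had 2 and the difference between the lines 0. Leaving out 1 array at a time gave 4 to 8 calls in Z4 minus Z1, 4 to 6 in M4 minus M1, 0 to 2 in Z4 minus M4, 0 to 1 in Z4 minus WT, 1 to 4 in M4 minus WT, 0 to 1 in Z1 minus M1, 5 to 7 in Z1 minus WT, 2 to 5 in M1 minus WT and 0 to 3 for the difference between the lines. Quantile normalization removes the shift of all genes: 3939 genes were called higher and 937 lower in Z4 minus Z1 (80.8% higher) as deposited, against 1634 and 1522 after it (51.8%). In M4 minus M1 the counts were 4720 and 1543 (75.4%) against 2422 and 2218 (52.2%), in Z4 minus WT, 936 and 588 (61.4%) against 566 and 569 (49.9%), and in M4 minus WT, 1812 and 1175 (60.7%) against 1287 and 1271 (50.3%). In Z1 minus WT they were 507 and 2512 (16.8%) against 734 and 745 (49.6%), in M1 minus WT, 495 and 2779 (15.1%) against 729 and 804 (47.6%), and in Z1 minus M1, 10 and 6 (62.5%) against 6 and 7 (46.2%). Causes of these moves were not tested beyond what each setting removes. The constant of 16 limits the size of changes in Npas2, Per1 and other signals near it.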
